A study of Mus musculus with 6 samples.

Results

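The genes described here make sterols and fatty acids. They are 33 genes taken by symbol from a list of pathway names. No measured value enters that rule, although the list was drawn up with earlier results of these data known. All 33 were found among the 25509 genes of the table, each on a single row. They comprise 18 enzymes of sterol synthesis (8 of the mevalonate steps and 10 of the steps from squalene to cholesterol), 4 regulators of the pathway, 2 genes of sterol handling and 9 enzymes of fatty acid synthesis. The RNA came from thioglycollate-elicited peritoneal macrophages of C57BL/6 mice, which are cells drawn into the peritoneal cavity by an irritant, collected on day 4, purified on a Percoll gradient and kept after 2 h of adherence in culture. There were 3 libraries of Tg-ACE mice (also labelled JWT), which overexpress angiotensin-converting enzyme, and 3 of WT mice. Replicates 2 and 3 of each genotype carry the experiment code Exp-156b and replicate 1 of each carries Exp-156. The series' design line calls the overexpressing group Tg-NKO, a name the sample labels do not use. The labels do not state what the codes stand for, the promoter behind the overexpression, the age of the mice, or whether replicates came from separate mice. The p-values therefore measure the spread between these libraries, which may be technical.

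Cholesterol is built from acetyl-CoA by way of mevalonate, isoprenoids and squalene, and its synthesis is controlled by sterol regulatory element-binding proteins (SREBPs). These transcription factors are held in the endoplasmic reticulum by SCAP and INSIG proteins when sterols are plentiful and move to the Golgi to be cut and released when sterols are scarce. SREBP2 acts mainly on sterol genes and SREBP1 mainly on fatty acid genes, in which acetyl-CoA is carboxylated, joined into palmitate, and then elongated and desaturated. In macrophages, which take up much cholesterol from dead cells and lipoproteins, this pathway and cholesterol export work in opposite directions.

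All 33 genes were expressed in every library, with between 34 and 6087 counts and between 1.34 and 227 CPM (counts scaled to the library's size). Per kilobase of exon, the mean level over the 6 libraries was highest for Acly, which makes cytosolic acetyl-CoA from citrate, at 36.9 CPM per kb. Insig1, the sterol-sensing anchor, followed at 23.3, the fatty acid elongase Elovl5 at 19.3, the transcription factor Srebf2 at 18.5 and the sterol isomerase Ebp at 18.4 CPM per kb. The last 3 levels lie close together and their ranges over libraries overlap. The lowest levels were those of Hsd17b7, a ketosteroid reductase, at 1.51, the desaturase Fads2 at 0.877 and the elongase Elovl6 at 0.789 CPM per kb. Fasn and Acaca, which encode fatty acid synthase and acetyl-CoA carboxylase, stood at 2.98 and 2.90 CPM per kb, far under Acly.

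**Figure D1:**
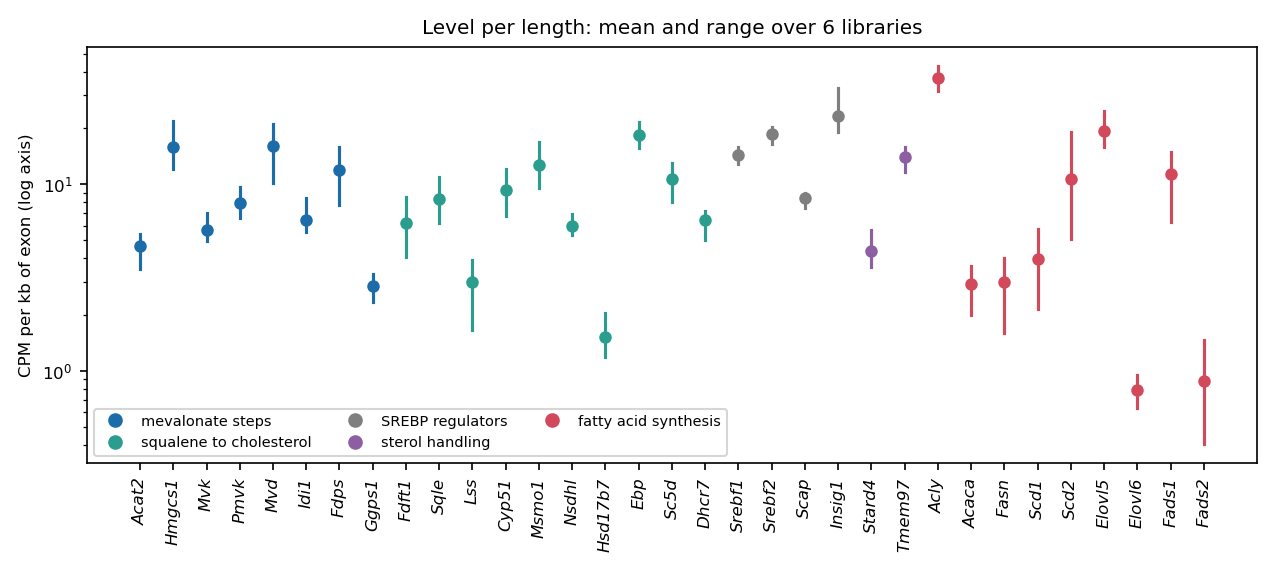
Level of each gene in CPM per kb of exon on a log axis, with the mean (point) and the lowest to highest library (line) over the 6 libraries, coloured by branch. Acly lies highest at 36.9 and Elovl6 lowest at 0.789 CPM per kb.

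The libraries held between 24294258 and 28120394 expected counts. Ace mRNA, the product of the overexpressed gene, stood at 101, 25.6 and 31.8 CPM in Tg-ACE and 16.7, 7.60 and 11.6 CPM in WT libraries, with no overlap (log2 fold change 1.95, adjusted p = 0.136 in edgeR). It passed without WT replicate 3 (2.24, adjusted p = 0.0154), with no filter on low counts (0.00414) and in DESeq2 (3.8e-05). The 2 experiments differed in more than the pathway. Xist stood between 327 and 454 CPM in the 4 Exp-156b libraries and at 0.527 and 0.409 CPM in the 2 Exp-156 libraries, and the Y-linked Ddx3y was at or under 0.107 CPM in Exp-156b and at 51.6 and 48.0 CPM in Exp-156. Sex and experiment therefore cannot be told apart. The 6 macrophage markers were all present, with summed levels from 17937 to 21852 CPM in Exp-156b and from 21166 to 21347 CPM in Exp-156. Lyz2 made up most of each sum (14309 to 18018 CPM), so the sums say little about the others. Lower in Exp-156b were 3 of them: Itgam (log2 fold change -1.78, adjusted p = 1.3e-04 in edgeR), Adgre1 (-1.22, 0.00105) and Csf1r (-0.42, 0.00279). Cd68, Lyz2 and Mertk did not pass. Of the 4 markers of large peritoneal macrophages 1 was higher and 3 were lower in Exp-156b (summed levels 19.3 to 24.8 against 43.7 to 51.4 CPM). Gata6 was higher (log2 fold change 1.41, adjusted p = 9.5e-04). Icam2 (-2.12, 3.7e-05), Selp (-3.24, 1.7e-05) and Timd4 (-4.69, 5.7e-04) were lower, with Timd4 at 2 to 17 counts in Exp-156b. The markers thus did not move together, and the sums do not show this. The 5 neutrophil markers summed to between 10.4 and 13.3 CPM in Exp-156b and to 147 and 473 CPM in Exp-156. Retnlg made up most of the sum in Exp-156, and Retnlg and S100a9 were lower in Exp-156b. S100a8 made up most of the sum in Exp-156b and did not pass (log2 fold change -0.15, adjusted p = 0.442). Mpo was not tested and was highest in Tg-ACE replicate 2 of Exp-156b (1.43 CPM). Ly6g was at or near 0 in all libraries. The 6 adipocyte markers, from a cell type rich in fatty acid synthesis, summed to at most 0.0822 CPM in Exp-156b and 0.205 CPM in Exp-156, with Lep and Cidea at 0 in all libraries. The 4 markers of dividing cells summed to between 42.6 and 68.4 CPM in Exp-156b and to 51.7 and 69.6 CPM in Exp-156, and the 4 of B cells to between 50.5 and 116 against 89.1 and 114 CPM, with none of either list called. The 4 of T cells summed to between 2.59 and 4.26 against 6.47 and 8.80 CPM, and all 4 were lower in Exp-156b. The 6 of mesothelial cells and fibroblasts summed to between 133 and 264 against 119 and 129 CPM. Higher in Exp-156b were 3 of these 6 markers: Upk3b (log2 fold change 1.98, adjusted p = 0.00806), Col1a1 (1.60, 0.00362) and Wt1 (1.04, 0.00658). Of all tested genes 20.0% were higher. Krt19 was lower (-0.82, 0.0102), and Msln and Col3a1 did not pass. The part of these other differences in the pathway differences was not tested, and in bulk RNA fewer cells of a type cannot be told apart from less RNA per cell.

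The pathway differed between the 2 experiments and not detectably between the genotypes. In Exp-156b relative to Exp-156, with genotype in the same fit, 16 of the 33 genes were higher and 3 were lower at an adjusted p under 0.05, while 14 did not pass. Among all 12827 genes tested 42.9% passed, 20.0% higher and 22.9% lower, so that the pathway's 48.5% higher stood above the background and its 9.09% lower stood under it. The median log2 fold change was 0.45 for the 18 sterol enzymes and 0.84 for the 9 fatty acid enzymes, beside 0.00 for all tested genes. The sterol median was 0.42 within Tg-ACE and 0.49 within WT, and the fatty acid median was 0.81 within Tg-ACE and 0.71 within WT. All 4 Exp-156b libraries lay above both Exp-156 libraries for 23 of the 33 genes (28.9% of all tested genes) and below both for 3 (30.9% of all tested genes). With only 2 libraries in Exp-156, leaving out either moved the number of genes called higher to 7 (without Tg-ACE replicate 1) or 8 (without WT replicate 1). All 19 called genes kept their direction whichever library was left out, and 8 of them also kept their call: Mvd, Lss, Dhcr7, Acaca, Fasn, Scd1, Elovl5 and Fads1.

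**Figure D2:**
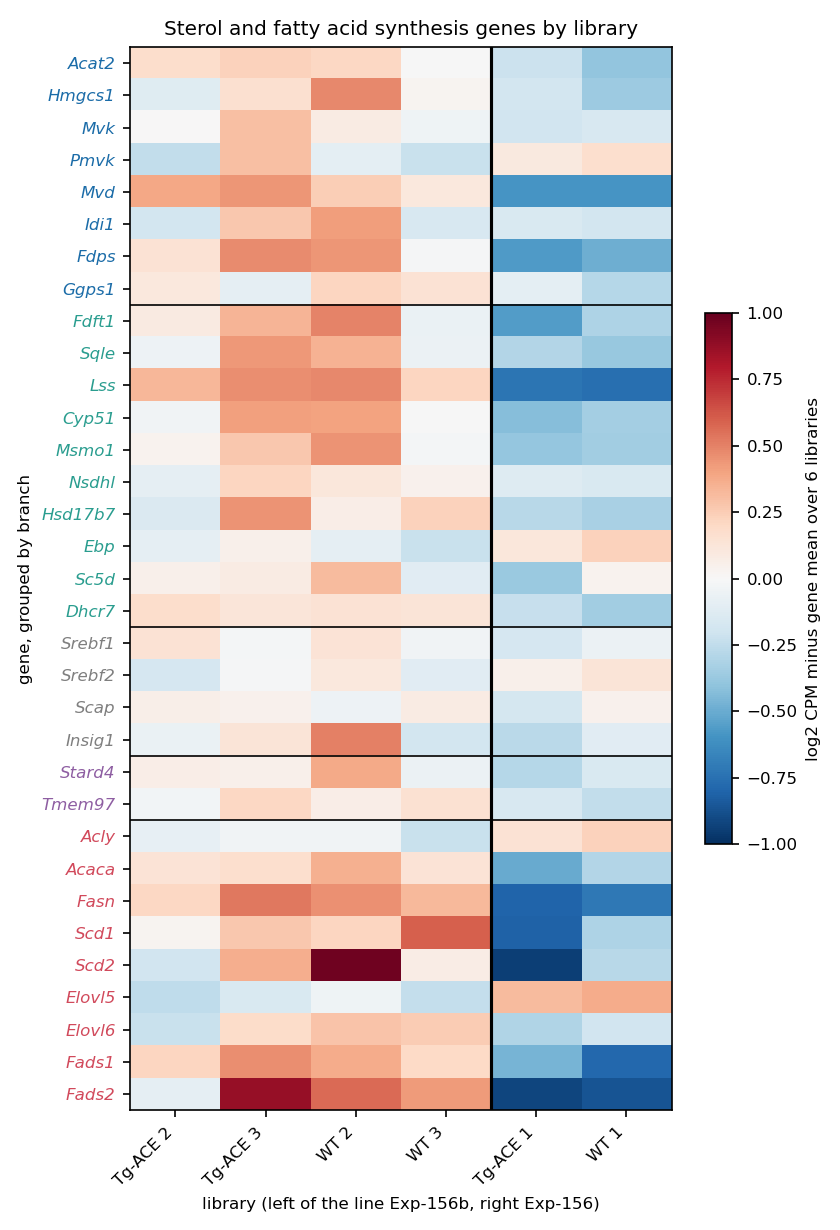
Log2 CPM of each gene (rows, by branch) minus its mean over the 6 libraries, with the 4 Exp-156b libraries left of the heavy line and the 2 Exp-156 libraries right of it. Most rows are below their mean in both libraries on the right. On the left most are above it in Tg-ACE replicate 3 and WT replicate 2. Many are below it in Tg-ACE replicate 2 or WT replicate 3, as Idi1 is in both (-0.18 and -0.16). Pmvk, Ebp, Srebf2, Acly and Elovl5 are above their mean in both libraries on the right. On the left, Pmvk and Ebp are also above it in Tg-ACE replicate 3, and Srebf2 in WT replicate 2.

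Of the 8 genes of the mevalonate steps, 3 rose in Exp-156b, none fell and 5 did not pass, with a median log2 fold change of 0.35. That is 37.5% higher and 0% lower, beside 20.0% and 22.9% of all tested genes. Counting both directions together, 37.5% were called, against 42.9% of all tested genes. Mvd, the decarboxylase that yields isopentenyl diphosphate, showed the largest difference. It stood at 37.3 and 38.8 CPM in Tg-ACE and 33.9 and 30.7 CPM in WT libraries of Exp-156b, against 18.9 CPM in both the Tg-ACE and the WT library of Exp-156. The experiments were well apart, with a log2 fold change of 0.89 (SE 0.09, adjusted p = 2.7e-04). Fdps, which joins isoprenoid units into farnesyl diphosphate, stood at 53.4 and 67.1 CPM in Tg-ACE and 65.6 and 47.7 CPM in WT libraries of Exp-156b, against 32.6 CPM (Tg-ACE) and 34.4 CPM (WT) in Exp-156. Its log2 fold change was 0.80 (SE 0.15, adjusted p = 0.0041), and 0.72 without Tg-ACE replicate 1 (adjusted p = 0.0622). Acat2, the cytosolic thiolase that starts the pathway, stood at 13.3 and 13.8 CPM in Tg-ACE and 13.6 and 11.7 CPM in WT libraries of Exp-156b, against 10.1 CPM (Tg-ACE) and 8.92 CPM (WT) in Exp-156. Its log2 fold change was 0.46 (SE 0.11, adjusted p = 0.0133), which missed the threshold at 0.50 without Tg-ACE replicate 1 (adjusted p = 0.0631) and at 0.41 without WT replicate 1 (adjusted p = 0.0999). These 2 genes carry an added doubt: 23.5% of the 75-base windows of Fdps transcripts and 33.9% of those of Acat2 also occur in transcripts of other genes, Acat3 in the case of Acat2 and Gm43738 among those of Fdps, so reads could be divided between them.

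The remaining 5 mevalonate genes had log2 fold changes between -0.19 and 0.42. Hmgcs1, HMG-CoA synthase, had the largest of these. It stood at 65.3 and 79.5 CPM in Tg-ACE and 99.5 and 72.7 CPM in WT libraries of Exp-156b, against 62.8 CPM (Tg-ACE) and 55.2 CPM (WT) in Exp-156. The experiments did not overlap, but the libraries of Exp-156b were spread widely and the difference missed the threshold (0.42, SE 0.16, adjusted p = 0.066), passing without Tg-ACE replicate 2 (0.52, adjusted p = 0.0347) or WT replicate 3 (0.49, adjusted p = 0.0445). The kinase Mvk had 0.27, Ggps1, which makes the geranylgeranyl donor of protein prenylation, 0.28 and the isomerase Idi1 0.28 (adjusted p = 0.1, 0.0997 and 0.246). Ggps1 passed without Tg-ACE replicate 3 (0.37, adjusted p = 0.046), and 16.7% of the windows of Idi1 are shared with other genes. Pmvk, phosphomevalonate kinase, had -0.19 (adjusted p = 0.373).

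From squalene to cholesterol, 6 of 10 genes rose in Exp-156b, 1 fell and 3 did not pass, with a median log2 fold change of 0.50. That is 60.0% higher and 10.0% lower, beside 20.0% and 22.9% of all tested genes. Lss, which closes the sterol rings to give lanosterol, stood at 38.0 and 41.6 CPM in Tg-ACE and 42.2 and 35.0 CPM in WT libraries of Exp-156b, against 18.1 CPM (Tg-ACE) and 17.8 CPM (WT) in Exp-156. All 4 Exp-156b libraries lay far above both Exp-156 libraries, with a log2 fold change of 1.12 (SE 0.10, adjusted p = 1.5e-04). Dhcr7, the reductase of the final step, differed less but evenly: it stood at 41.9 and 40.4 CPM in Tg-ACE and 41.1 and 40.7 CPM in WT libraries of Exp-156b, against 31.6 CPM (Tg-ACE) and 29.2 CPM (WT) in Exp-156. Its log2 fold change was 0.43 (SE 0.07, adjusted p = 0.00204).

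Of the other 4 that rose, Fdft1 and Sqle act before Lss, and Cyp51 and Msmo1 between Lss and Dhcr7. Fdft1, squalene synthase, had 27.1 and 32.3 CPM in Tg-ACE and 36.0 and 24.2 CPM in WT libraries of Exp-156b, against 17.3 CPM (Tg-ACE) and 20.5 CPM (WT) in Exp-156, a log2 fold change of 0.67 (adjusted p = 0.0141). Sqle, squalene epoxidase and a rate-controlling enzyme, had 43.4 and 60.7 CPM in Tg-ACE and 57.1 and 43.0 CPM in WT libraries of Exp-156b, against 36.6 CPM (Tg-ACE) and 34.5 CPM (WT) in Exp-156, a log2 fold change of 0.52 (adjusted p = 0.0308). In both genes 1 library of each genotype in Exp-156b lay well above the other. The lanosterol demethylase Cyp51 had 39.0 and 53.2 CPM in Tg-ACE and 52.9 and 39.9 CPM in WT libraries of Exp-156b, against 29.8 CPM (Tg-ACE) and 31.6 CPM (WT) in Exp-156, a log2 fold change of 0.59 (adjusted p = 0.0168). The sterol methyl oxidase Msmo1 had 77.9 and 91.7 CPM in Tg-ACE and 104 and 75.0 CPM in WT libraries of Exp-156b, against 58.3 CPM (Tg-ACE) and 59.9 CPM (WT) in Exp-156, a log2 fold change of 0.56 (adjusted p = 0.0128). All 4 calls ended when either Exp-156 library was left out, with log2 fold changes between 0.50 and 0.77 and adjusted p from 0.0646 to 0.174, and that of Sqle also without Tg-ACE replicate 3 (0.43, adjusted p = 0.0507). Fdft1 shares 774 exonic bases with Ctsb on the opposite strand, and no source used here states whether reads were counted by strand, so reads of that gene cannot be told apart from its own.

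Ebp, the X-linked sterol isomerase, fell slightly: 39.8 and 43.7 CPM in Tg-ACE and 39.7 and 36.3 CPM in WT libraries of Exp-156b, against 45.6 CPM (Tg-ACE) and 49.7 CPM (WT) in Exp-156. The log2 fold change was -0.26 (SE 0.09, adjusted p = 0.0455), which missed the threshold on leaving out Tg-ACE replicate 2 (-0.24, adjusted p = 0.11), WT replicate 1 (-0.13, 0.377), WT replicate 2 (-0.26, 0.0722) or WT replicate 3 (-0.20, 0.137). The 3 that did not pass were Nsdhl, the other X-linked enzyme of the branch (0.22), Hsd17b7 (0.47) and the desaturase Sc5d (0.26), with adjusted p from 0.0771 to 0.153. Hsd17b7 passed without Tg-ACE replicate 2 (0.60, adjusted p = 0.0204) and Sc5d without WT replicate 3 (0.39, adjusted p = 0.0126).

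The regulators had a median log2 fold change of 0.13, beside 0.45 for the sterol enzymes, and the difference between these medians was not tested. Leaving out Tg-ACE replicate 1 gave the regulators a median of 0.04, and leaving out WT replicate 1 gave 0.22, and in fits to 1 genotype it was 0.25 for Tg-ACE and 0.05 for WT. None of the 4 passed between experiments in edgeR, DESeq2 or limma-voom. Srebf2, the SREBP of sterol genes, stood at 118 and 132 CPM in Tg-ACE and 143 and 123 CPM in WT libraries of Exp-156b, against 137 CPM (Tg-ACE) and 146 CPM (WT) in Exp-156, and the experiments overlapped (-0.13, SE 0.08, adjusted p = 0.238). Srebf1 stood at 89.1 and 79.8 CPM in Tg-ACE and 88.5 and 78.5 CPM in WT libraries of Exp-156b, against 71.9 CPM (Tg-ACE) and 77.5 CPM (WT) in Exp-156, just apart (0.17, SE 0.08, adjusted p = 0.135). Scap had 0.10 (SE 0.08, adjusted p = 0.379), with 0.23 within Tg-ACE and -0.03 within WT. Insig1, itself an SREBP target, had 67.7 and 77.6 CPM in Tg-ACE and 101 and 62.6 CPM in WT libraries of Exp-156b, against 58.7 CPM (Tg-ACE) and 65.5 CPM (WT) in Exp-156. WT replicate 2 was far above the others (0.31, SE 0.17, adjusted p = 0.177), and the difference passed without WT replicate 3 (0.46, adjusted p = 0.0151). Because SREBPs are controlled by transport and cutting, the mRNA levels of these genes do not report SREBP activity.

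Of the 2 sterol handling genes, Tmem97, a sterol-responsive membrane protein of the endoplasmic reticulum, rose in Exp-156b, with 18.6 and 21.9 CPM in Tg-ACE and 19.8 and 21.1 CPM in WT libraries, against 16.9 CPM (Tg-ACE) and 16.0 CPM (WT) in Exp-156. The log2 fold change was 0.31 (SE 0.10, adjusted p = 0.037), and the call ended on leaving out any 1 library other than Tg-ACE replicate 2 (adjusted p from 0.0533 to 0.209), with log2 fold changes of 0.25 to 0.37 over all 6 such fits. Of its windows 16.1% are shared with Gm5809. Stard4, a cytosolic sterol carrier, had 25.5 and 25.2 CPM in Tg-ACE and 31.7 and 23.4 CPM in WT libraries of Exp-156b, against 20.0 CPM (Tg-ACE) and 21.9 CPM (WT) in Exp-156 (0.34, SE 0.12, adjusted p = 0.0558; 0.44 and 0.0103 without WT replicate 3).

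In fatty acid synthesis the median log2 fold change was 0.84, with 6 of 9 genes higher in Exp-156b, 2 lower and 1 that did not pass. That is 66.7% higher and 22.2% lower, beside 20.0% and 22.9% of all tested genes. Fasn, fatty acid synthase, stood at 35.3 and 44.2 CPM in Tg-ACE and 42.0 and 38.4 CPM in WT libraries of Exp-156b, against 17.5 CPM (Tg-ACE) and 18.6 CPM (WT) in Exp-156. That is a log2 fold change of 1.15 (SE 0.11, adjusted p = 2.1e-04). Acaca, which makes malonyl-CoA for it, stood at 53.5 and 54.7 CPM in Tg-ACE and 62.0 and 53.3 CPM in WT libraries of Exp-156b, against 34.2 CPM (Tg-ACE) and 39.6 CPM (WT) in Exp-156 (0.60, SE 0.08, adjusted p = 0.00122). Reads of Acaca may be divided, as 26.8% of its windows occur in transcripts of other genes, Gm5182 among them. Acly, by contrast, was lower in Exp-156b, at 183 and 189.8 CPM in Tg-ACE and 189 and 167 CPM in WT libraries, against 214 CPM (Tg-ACE) and 227 CPM (WT) in Exp-156. Its log2 fold change was -0.28 (SE 0.08, adjusted p = 0.0239), which missed the threshold on leaving out Tg-ACE replicate 2 (-0.27, adjusted p = 0.0665), WT replicate 1 (-0.20, 0.188) or WT replicate 3 (-0.21, 0.0704).

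The 4 fatty acid desaturases among the 33 genes rose in Exp-156b, while Fads3, on the list of other fatty acid genes, had 0.13 (adjusted p = 0.727). Fads1, which acts on polyunsaturated fatty acids, stood at 60.3 and 71.6 CPM in Tg-ACE and 67.1 and 59.7 CPM in WT libraries of Exp-156b, against 37.5 CPM (Tg-ACE) and 30.0 CPM (WT) in Exp-156 (0.94, SE 0.11, adjusted p = 4.8e-04). Its neighbour Fads2, which acts earlier in the same route, was far scarcer, at 2.43 and 4.81 CPM in Tg-ACE and 3.87 and 3.50 CPM in WT libraries of Exp-156b, against 1.34 CPM (Tg-ACE) and 1.39 CPM (WT) in Exp-156. Its difference of 1.42 (SE 0.32, adjusted p = 0.0092) was the widest of the 33 on the log2 scale and rested on 38 and 34 counts in Exp-156. It was 1.40 without Tg-ACE replicate 1 (adjusted p = 0.0814) and 1.43 without WT replicate 1 (adjusted p = 0.0731).

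The stearoyl-CoA desaturases Scd1 and Scd2, which introduce the double bond of oleate, are close relatives, yet only 3.15% and 1.78% of their windows are shared with other genes. Scd1 stood at 18.8 and 22.3 CPM in Tg-ACE and 21.5 and 28.1 CPM in WT libraries of Exp-156b, against 10.5 CPM (Tg-ACE) and 14.9 CPM (WT) in Exp-156 (0.84, SE 0.14, adjusted p = 0.00258). Scd2 stood at 46.4 and 68.4 CPM in Tg-ACE and 104 and 56.0 CPM in WT libraries of Exp-156b, against 27.7 CPM (Tg-ACE) and 43.7 CPM (WT) in Exp-156. Its replicates were spread widely, and its log2 fold change of 0.96 had an SE of 0.26 (adjusted p = 0.0191), which missed the threshold on leaving out Tg-ACE replicate 1 (0.87, adjusted p = 0.156) or WT replicate 1 (1.05, adjusted p = 0.107). Per kilobase, Scd2 was the more abundant of the pair (10.6 and 3.96 CPM per kb).

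Of the 2 elongases, 1 fell and 1 did not pass. Elovl5, which lengthens polyunsaturated fatty acids, was lower in Exp-156b, at 56.0 and 60.3 CPM in Tg-ACE and 65.0 and 56.8 CPM in WT libraries, against 83.2 CPM (Tg-ACE) and 86.5 CPM (WT) in Exp-156. The log2 fold change was -0.51 (SE 0.08, adjusted p = 0.00166), with -0.52 within Tg-ACE and -0.51 within WT. Elovl6, which lengthens palmitate, had 0.38 (SE 0.18, adjusted p = 0.117) and overlapped between experiments.

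**Figure D3:**
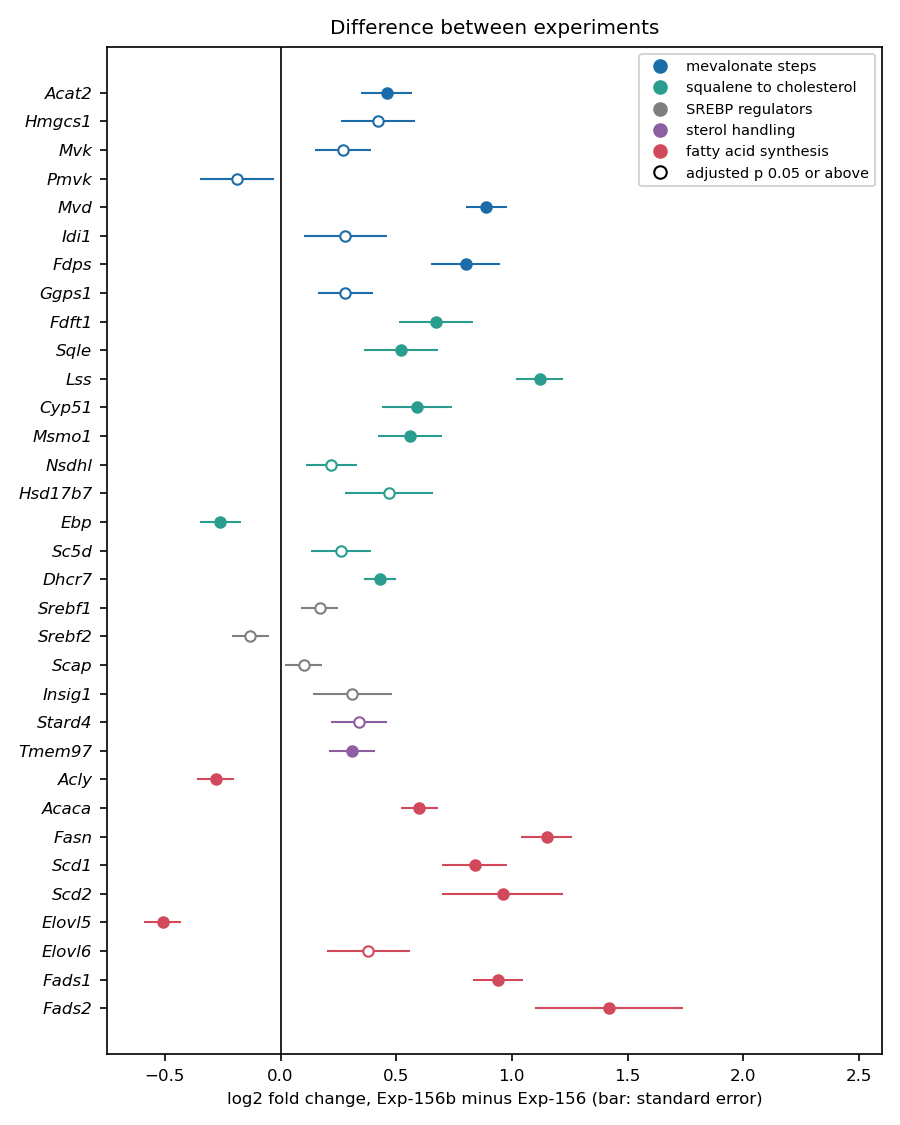
Log2 fold change of Exp-156b minus Exp-156 for each gene with its standard error, coloured by branch, from the fit on experiment code and genotype over 6 libraries. Filled points passed at an adjusted p under 0.05; Fads2 lies farthest right at 1.42 and Elovl5 farthest left at -0.51.

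**Figure D4:**
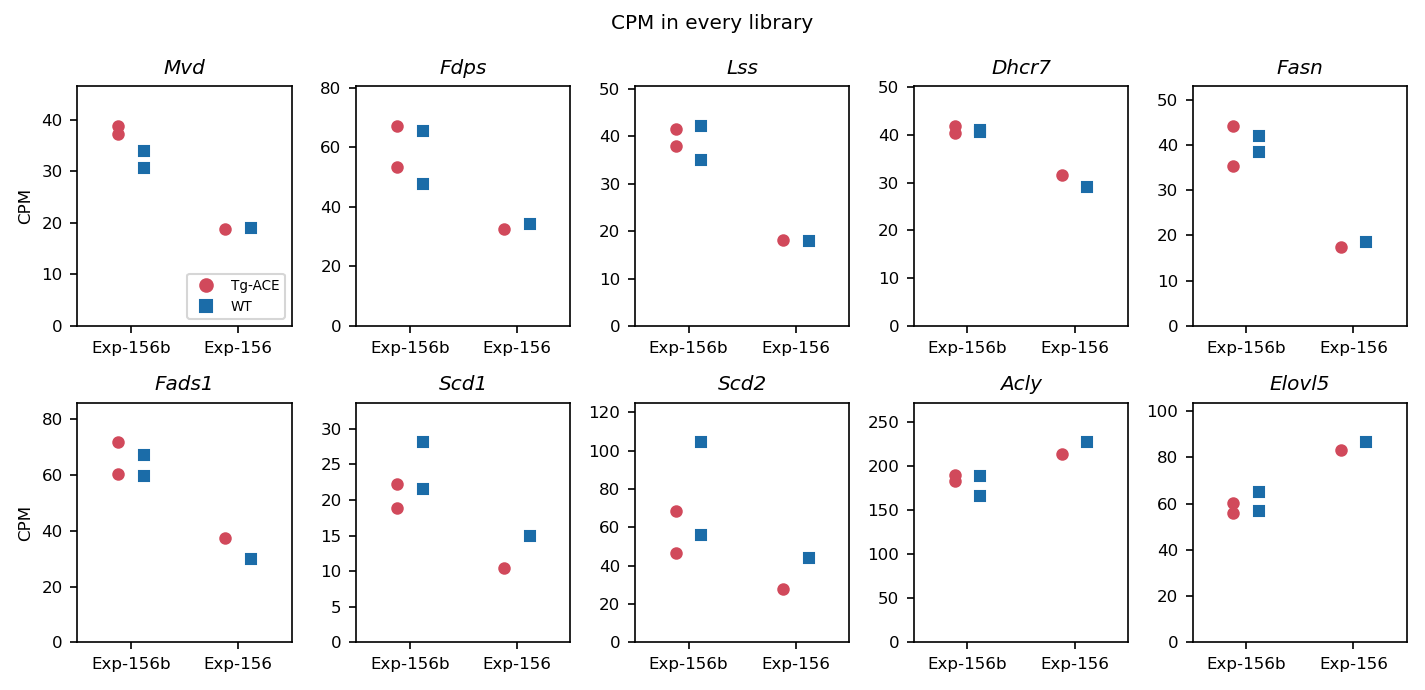
CPM of 10 genes in every library, Exp-156b on the left and Exp-156 on the right of each panel, with Tg-ACE as circles and WT as squares. For these genes the experiments do not overlap. Within an experiment circles and squares mostly lie at similar heights, apart from Scd1 and Scd2. Both are lower in the Tg-ACE library of Exp-156. In Exp-156b, Scd2 is spread widely, at 46.4 and 68.4 CPM in Tg-ACE and 104 and 56.0 CPM in WT libraries.

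Promoter windows, from 250 bases before to 50 bases after the annotated start, were at hand for 26 of the 33 genes in RefSeq (GRCm38.p6). They are shown for the gene with the largest rise that holds a CCAAT box in each enzyme branch (Mvd, Lss and Fasn), for the gene with the largest fall (Elovl5), and for Hmgcs1, the only member whose window held the sterol regulatory element core searched for. They were chosen with the values known. Capitals mark CCAAT (or its reverse complement ATTGG), the box bound by NF-Y, a partner of SREBPs, the core TCACNCCAC on either strand, and the E-box CACGTG.
Mvd (chr8:122443373-122443672, reverse strand): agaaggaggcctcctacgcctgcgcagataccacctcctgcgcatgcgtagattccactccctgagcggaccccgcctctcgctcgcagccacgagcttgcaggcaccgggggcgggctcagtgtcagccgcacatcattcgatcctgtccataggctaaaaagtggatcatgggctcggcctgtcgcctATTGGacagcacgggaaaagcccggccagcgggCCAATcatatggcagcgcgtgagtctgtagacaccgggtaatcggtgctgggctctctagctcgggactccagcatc
Lss (chr10:76531355-76531654, forward strand): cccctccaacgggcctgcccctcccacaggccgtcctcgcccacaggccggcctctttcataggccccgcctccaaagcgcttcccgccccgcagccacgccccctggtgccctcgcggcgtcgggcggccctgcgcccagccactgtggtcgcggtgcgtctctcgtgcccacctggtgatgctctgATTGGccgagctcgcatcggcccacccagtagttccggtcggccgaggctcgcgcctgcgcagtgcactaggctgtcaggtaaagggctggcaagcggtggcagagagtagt
Fasn (chr11:120824498-120824797, reverse strand): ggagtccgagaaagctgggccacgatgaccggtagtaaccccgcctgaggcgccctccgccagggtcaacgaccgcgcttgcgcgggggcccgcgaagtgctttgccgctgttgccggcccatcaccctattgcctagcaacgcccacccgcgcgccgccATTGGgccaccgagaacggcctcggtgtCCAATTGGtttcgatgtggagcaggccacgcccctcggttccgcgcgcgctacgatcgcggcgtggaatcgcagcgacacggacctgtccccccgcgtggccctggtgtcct
Elovl5 (chr9:77917115-77917414, forward strand): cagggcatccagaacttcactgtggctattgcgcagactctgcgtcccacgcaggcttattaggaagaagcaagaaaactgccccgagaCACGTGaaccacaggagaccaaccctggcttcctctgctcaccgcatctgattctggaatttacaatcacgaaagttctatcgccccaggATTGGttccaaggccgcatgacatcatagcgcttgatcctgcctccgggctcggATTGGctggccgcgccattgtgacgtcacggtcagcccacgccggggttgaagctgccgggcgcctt
Hmgcs1 (chr13:119690101-119690400, forward strand): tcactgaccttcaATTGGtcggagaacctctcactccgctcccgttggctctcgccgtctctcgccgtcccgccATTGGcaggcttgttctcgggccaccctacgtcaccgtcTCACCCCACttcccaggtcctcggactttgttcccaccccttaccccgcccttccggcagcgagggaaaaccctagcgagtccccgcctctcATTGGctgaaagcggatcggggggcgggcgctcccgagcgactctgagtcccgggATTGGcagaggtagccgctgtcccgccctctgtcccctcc

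Among the 26 genes, 21 (80.8%) held CCAAT in a window, against 41.1% of all 27025 genes with a window. The E-box CACGTG was held by 6 of the 26 (23.1%) and by 8.09% of all genes, and the core by 1 of 26 (3.85%) and by 1.44% of all genes. Both the risen Fasn, with 3 CCAAT boxes of which 2 overlap head to head, and the fallen Elovl5, with 2, held the box, and so did Mvk (5) and Nsdhl (4), which did not pass. Acat2, Acaca and Fads2, which rose, held no such box in their windows, nor did Scap and Elovl6, which did not pass. A match describes letters only, and other forms of the element were not searched.

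Genes of the same pathway outside the 33 were looked up from 3 further lists. Of 11 other genes of sterol synthesis and uptake, 10 were tested, of which 4 rose and 3 fell in Exp-156b (40.0% and 30.0%, beside 20.0% and 22.9% of all tested genes). Mylip, a ubiquitin ligase and target of the sterol sensor LXR, stood at 45.5 and 34.9 CPM in Tg-ACE and 50.7 and 41.1 CPM in WT libraries of Exp-156b, against 14.8 CPM (Tg-ACE) and 19.6 CPM (WT) in Exp-156 (1.34, adjusted p = 3.6e-04). The electron donors Por (0.71, adjusted p = 3.4e-04) and Cyb5r3 (0.50, adjusted p = 0.00141) rose as well. Lbr, a nuclear membrane protein with sterol reductase activity, fell by 1.68 on the log2 scale (adjusted p = 5.6e-05), the mitochondrial thiolase Acat1 by 0.70 (adjusted p = 8.5e-04) and the reductase Tm7sf2 by 0.40 (adjusted p = 0.0484, and from 0.0742 to 0.221 on leaving out any 1 library).

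Of 10 genes of SREBP processing, Pgrmc1 rose (0.22, adjusted p = 0.028) and Erlin1, a sterol-sensing protein of the endoplasmic reticulum, fell (-0.23, adjusted p = 0.0222), while 8 did not pass (10.0% called in each direction, under the background). Both calls ended without Tg-ACE replicate 1 (0.23 and 0.0986 for Pgrmc1, -0.22 and 0.108 for Erlin1), without WT replicate 1 (0.20 and 0.127, -0.25 and 0.0774) and without some Exp-156b libraries. Of 26 other genes of fatty acid synthesis and elongation, 23 were tested, of which 8 rose and 2 fell (34.8% and 8.70%, beside 20.0% and 22.9% of all tested genes). Mlxipl, the glucose-responsive transcription factor ChREBP, which also drives lipogenic genes, was nearly lost in Exp-156b. It stood at 0.279 and 0.329 CPM in Tg-ACE and 0.533 and 0.358 CPM in WT libraries of Exp-156b, against 13.0 CPM (Tg-ACE) and 17.3 CPM (WT) in Exp-156 (-5.32, SE 0.19, adjusted p = 4.2e-06). Me1, the malic enzyme that yields NADPH for lipid synthesis, rose at low levels, 2.47 and 3.91 CPM in Tg-ACE and 3.23 and 3.34 CPM in WT libraries of Exp-156b, against 0.774 CPM (Tg-ACE) and 0.491 CPM (WT) in Exp-156 (2.34, adjusted p = 0.00116). Mid1ip1, a helper of acetyl-CoA carboxylase, rose as well (0.74, adjusted p = 4.3e-04). The remaining ones that rose were Elovl1 (0.40), Hacd3 (0.37) and the acyl-CoA synthetases Acsl1 (0.46), Acsl3 (0.67), Acsl4 (0.42) and Acsl5 (0.21), and Hacd4 fell (-0.49). Acsl3 missed the threshold on leaving out Tg-ACE replicate 1 (0.72, adjusted p = 0.0634) or WT replicate 1 (0.60, adjusted p = 0.0987), Acsl4 on leaving out WT replicate 1 (0.29, adjusted p = 0.064), and Acsl5 on leaving out any 1 library other than Tg-ACE replicate 3 (0.20 to 0.23, adjusted p from 0.055 to 0.127).

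Within Exp-156b the pathway also varied between replicates of the same genotype. Of the 18 sterol enzymes, 17 (94.4%) were highest in Tg-ACE replicate 3 or WT replicate 2, against 55.4% of all tested genes, and 16 (88.9%) were lowest in Tg-ACE replicate 2 or WT replicate 3, against 46.3% of all tested genes. Tg-ACE replicate 3 exceeded Tg-ACE replicate 2, and WT replicate 2 exceeded WT replicate 3, in 15 of these 18 enzymes and in 8 of the 9 fatty acid enzymes, against 25.3% of all tested genes. The median log2 difference over the sterol enzymes was 0.27 between the Tg-ACE pair and 0.24 between the WT pair, beside 0.00 for all tested genes in both. Genes with differences above 0.40 in both pairs were Scd2 (0.56 and 0.90), Idi1 (0.45 and 0.58), Sqle (0.48 and 0.41) and Cyp51 (0.45 and 0.41), and Fads2 had 0.98 and 0.15, whereas Mvd had 0.06 and 0.14 and Dhcr7 -0.05 and 0.02. This pattern was noticed in the data and not tested. Since each genotype holds 1 higher and 1 lower library, this spread enters the error of the genotype comparison.

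Between genotypes, 0 of the 33 genes passed in either direction in edgeR's test with the experiment code in the fit, and 0 passed in DESeq2 or limma-voom. At an unadjusted p under 0.05 there were 2 (6.06%), beside 6.48% of all tested genes, and over all genes 0.0156% passed, which are 2 genes outside the pathway. No member was apart between the genotypes over all 6 libraries (2.38% of all tested genes were apart and higher in Tg-ACE, 2.53% lower). The log2 fold changes ran from -0.54 to 0.16, with standard errors of 0.06 to 0.28. The median was 0.04 for the sterol enzymes (11 above 0 and 7 below) and -0.06 for the fatty acid enzymes (2 above and 7 below), beside -0.01 for all tested genes. Over single libraries left out the sterol median ran from -0.08 (without Tg-ACE replicate 3) to 0.08 (without WT replicate 2) and was also below 0 without WT replicate 3 (-0.04), and the fatty acid median ran from -0.15 (without Tg-ACE replicate 3) to -0.01 (without WT replicate 2).

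The 2 with an unadjusted p under 0.05 were the stearoyl-CoA desaturases, both lower in Tg-ACE. Scd2 stood at 27.7, 46.4 and 68.4 CPM in Tg-ACE and at 43.7, 104 and 56.0 CPM in WT libraries (47.5 ± 20.4 against 68.0 ± 32.0, SD, n = 3 each). Scd1 stood at 10.5, 18.8 and 22.3 CPM in Tg-ACE and at 14.9, 21.5 and 28.1 CPM in WT libraries (17.2 ± 6.05 against 21.5 ± 6.56, SD, n = 3 each). The genotypes overlapped in both genes. The log2 fold change was -0.54 (SE 0.23) for Scd2 and -0.34 (SE 0.13) for Scd1, and neither passed (unadjusted p = 0.0495 and 0.0289, adjusted p = 0.767 and 0.761 in edgeR). Within Exp-156 they were -0.66 for Scd2 and -0.50 for Scd1, and within Exp-156b -0.44 and -0.26. Over single libraries left out the value of Scd2 ran from -0.78 (without WT replicate 3) to -0.26 (without WT replicate 2). That of Scd1 ran from -0.47 (without WT replicate 2) to -0.24 (without WT replicate 3). Neither gene passed in any of these fits. Acaca, the third of this branch by p, had -0.13 (SE 0.08, adjusted p = 0.797), from 34.2, 53.5 and 54.7 CPM in Tg-ACE and 39.6, 62.0 and 53.3 CPM in WT libraries.

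Among the mevalonate genes the smallest p was that of Mvd, at 18.9, 37.3 and 38.8 CPM in Tg-ACE and 18.9, 33.9 and 30.7 CPM in WT libraries (0.16, SE 0.08, adjusted p = 0.791), followed by Acat2 (0.12, SE 0.10) and Pmvk (0.12, SE 0.15). For Mvd it was 0.00 in the Exp-156 libraries and 0.24 in those of Exp-156b. From squalene onward they were Sc5d, at 39.2, 52.8 and 53.8 CPM in Tg-ACE and 52.2, 63.2 and 47.1 CPM in WT libraries (-0.17, SE 0.12, adjusted p = 0.834), Dhcr7 (0.04, SE 0.06) and Fdft1 (-0.09, SE 0.15). The regulators Srebf2 (-0.09, SE 0.08), Insig1 (-0.17, SE 0.16) and Scap (-0.05, SE 0.08) and the handling genes Stard4 (-0.12, SE 0.11) and Tmem97 (0.02, SE 0.09) did not pass (adjusted p from 0.853 to 0.976). Without WT replicate 2 the sign turned for Fdft1 (0.07), Insig1 (0.05) and Stard4 (0.01). These results do not show that the genotypes were alike, since the errors leave room for differences of a similar size.

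**Figure D5:**
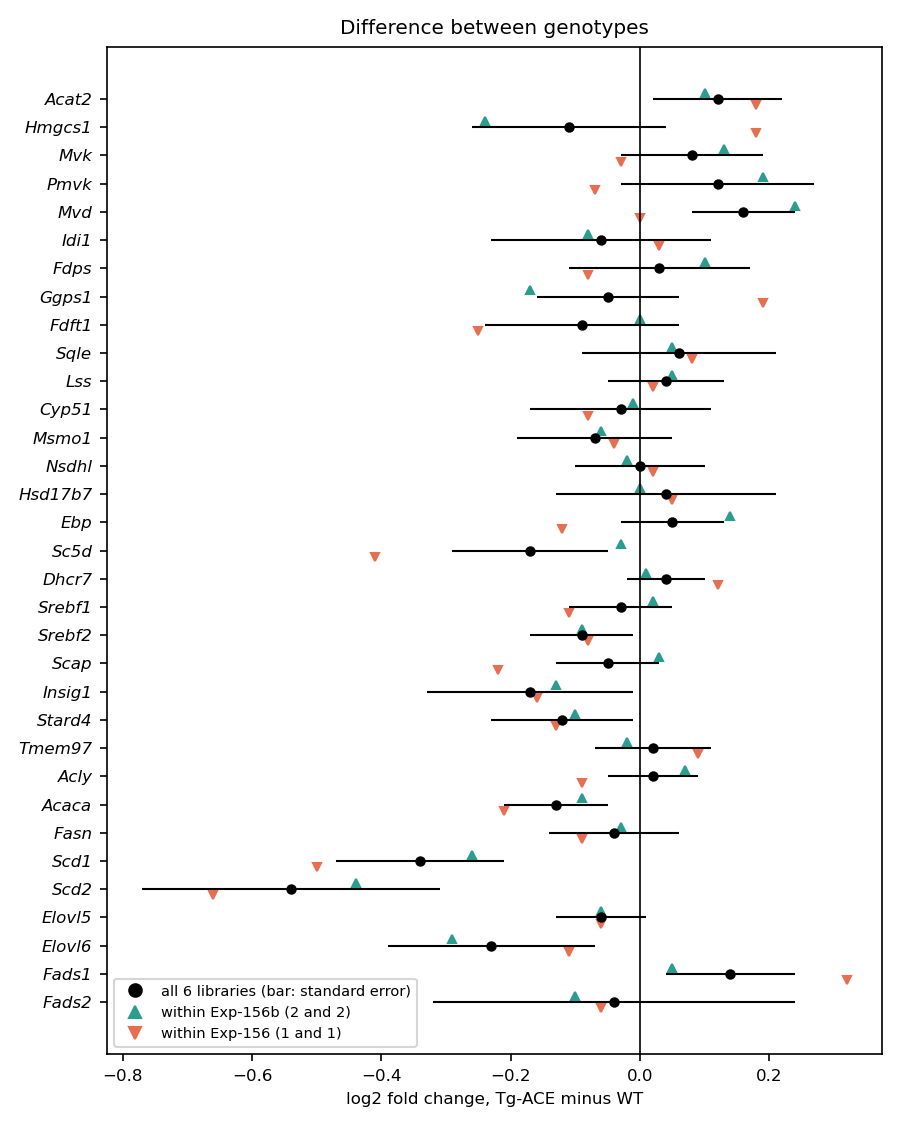
Log2 fold change of Tg-ACE minus WT for each gene: circles with standard errors from all 6 libraries with the experiment code in the fit, upward triangles within Exp-156b (2 and 2 libraries) and downward triangles within Exp-156 (1 and 1). Most circles lie near 0, and Scd2 (-0.54) and Scd1 (-0.34) lie farthest left.

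Whether the genotype difference itself differed between the experiments was tested as an interaction. It passed for 0 of the 33 genes in edgeR (adjusted p from 0.673 to 0.993), with 0 at an unadjusted p under 0.05, beside 0% of all tested genes called and 7.65% at an unadjusted p under 0.05. The smallest unadjusted p was 0.0955, for Scap, with -0.22 in the Exp-156 libraries and 0.03 in those of Exp-156b. This test had 2 residual degrees of freedom, both from the replicates of Exp-156b.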

How the data were processed

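Poly-A RNA had been made into stranded libraries and read as single 75-base reads, per the labels' protocols. The authors deposited expected counts per gene without normalization, and the submitters' processing notes list STAR 2.5.0 and RSEM 1.2.25 along with 2 builds, GRCh38 and mm10, giving no roles. The values were rounded to whole counts (11% to 11.4% of a library's values were not whole). The 92 spike-in rows, with 1 count in all, were left out, and 0 columns belonged to samples outside the labels. A count of 3 corresponds to between 0.107 and 0.123 CPM, a limit that covers counting error only.

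The test was edgeR 4.0.16 (R 4.3.3), quasi-likelihood, TMM factors, filterByExpr by genotype (12827 genes kept), with genotype and experiment code as terms and Benjamini-Hochberg adjustment over all tested genes at 0.05. The biological coefficient of variation was 0.310 with genotype alone and 0.108 with the code as well. Standard errors were taken from the log2 fold change and its F statistic, and values within an experiment or a genotype are differences of log2 CPM with a prior count of 2. Alternatives used DESeq2 1.42.0 and limma 3.58.1, other filters and factors, and each library left out. The scripts were tested on simulated data. Lengths, positions and shared windows came from GENCODE vM21 (GRCm38), matched by identifier (25251 of 25509). Members were taken by symbol, with no measured value in the rule, but they, the gene lists and the design were chosen with earlier results of these data known. All members were to be named, with values in every library for those called in either comparison or, where none passed, for the 3 with the smallest p per branch.

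Same-numbered libraries of the genotypes deviated together from their group means (correlation over genes 0.856, 0.483 and 0.637). Differently numbered libraries of Exp-156b did so too. Tg-ACE replicate 3 and WT replicate 2 gave 0.539, and Tg-ACE replicate 2 and WT replicate 3 gave 0.615. The numbers were taken as pairs in an alternative fit only. With the experiment code removed, pairs 2 and 3 gave -0.178 and -0.101. Tg-ACE replicate 3 and WT replicate 2 then gave -0.143, and Tg-ACE replicate 2 and WT replicate 3 gave -0.0939. Removing the means and the code ties the remaining deviations to each other, so the negative signs decide nothing. Same-numbered libraries were no closer than differently numbered ones. Some genes of the further pathway lists are counted but not reported here by name.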

Additional observations from a re-analysis of the deposited data

Results flagged for a closer look

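In the 4 Exp-156b libraries, Acaca stood at 62.0 CPM in WT replicate 2, set apart from the other 3 libraries, which lay between 53.3 and 54.7 CPM. The gap took up 0.838 of the range of the 4 values, past the 95% critical value of Dixon's test for 4 values. Chance flags about 1 in 20 such groups, and 33 genes were looked at.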

How the results depend on the processing

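All 19 calls between experiments kept their direction under the alternatives that gave a value (18 with the 5 CPM filter, which removed Fads2). With either Exp-156 library left out, or within a genotype, 1 library stands for Exp-156 and is assumed to vary like the others. Of the members, 7 were higher in Exp-156b without Tg-ACE replicate 1, 8 without WT replicate 1, 13 within Tg-ACE alone and 8 within WT alone, against 15 to 19 with an Exp-156b library left out. The number lower was 1 to 3 over single libraries left out, and 1 within Tg-ACE alone. Over all genes the counts were 1442 to 2382 higher and 1961 to 2889 lower over single libraries left out, 1539 and 1925 within Tg-ACE alone, and 1462 and 1908 within WT alone. The regulator median between experiments was 0.04 to 0.22 over single libraries left out and 0.25 within Tg-ACE alone, and Scap turned to -0.03 without Tg-ACE replicate 1 and -0.02 within WT alone. Ebp lost its call with relative log expression factors (adjusted p = 0.0532), no filter (0.0533) and DESeq2 (0.0721), and Tmem97 with DESeq2 (0.0521). Hmgcs1 passed with no filter (0.0354) and DESeq2 (0.0266), as Stard4 did with no filter (0.04).

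Between genotypes no member passed under any alternative run. Over all genes 0 were higher and 2 lower, and the counts were 0 to 1 higher over single libraries left out, 0 lower with genotype alone, 2 and 7 with no filter, and 19 and 19 with DESeq2. Signs turned for Pmvk (-0.07 to 0.23), Fdft1 (-0.26 to 0.07), Insig1 (-0.34 to 0.05), Stard4 (-0.24 to 0.01), Scap (-0.11 to 0.03) and Tmem97 (-0.04 to 0.09) over single libraries left out, and in Exp-156b alone Scap had 0.03 and Tmem97 -0.02. With the replicate number as a block in place of the code, 0 members and 2 genes passed, and the block changed no other call. The cause of these changes was not tested.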
